A study of Drosophila melanogaster with 4 samples.

Results

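Axon guidance genes encode the cues, the receptors and the intracellular effectors that steer growing axons. Here 35 such genes were followed in nuclear RNA of aged Drosophila photoreceptors, out of 13929 genes with a row in the deposited count table. The members were chosen by family, as semaphorins and plexins, Slit and Robo, netrins and their receptors, Ephrin and Eph, teneurins and receptor tyrosine phosphatases. A few other receptors were included, with enzymes, adaptors and other proteins that act inside the cell. All 35 were found by matching the FlyBase identifiers of the table to gene symbols. The rule names families and uses no measured value, but the list was drawn up with earlier results of these data known.

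Guidance ligands are either secreted or held on a membrane, and they bind receptors on the growth cone, which respond by attraction or repulsion. The receptors act on the actin cytoskeleton through kinases, adaptors and exchange factors. The R1-R6 photoreceptors, which express the rhodopsin Rh1 (ninaE), send their axons to the lamina during development, and genes such as dock, Pak, trio, Lar and Ptp69D are known in the fly for their part in that projection. Many guidance genes are also expressed in adult neurons, where several act at synapses.

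The flies were males at Day 30 after eclosion, kept in a light and dark cycle and collected at ZT 6, that is 6 h after lights on. In both groups rh1-GAL4, a driver active in R1-R6 cells, directed UAS-Dcr-2.D, which strengthens RNAi, and UAS-GFP-Msp300KASH, which puts GFP on the nuclear envelope, in a w1118 and ry506 background. The groups differed in the RNAi construct, which was TRiP.JF01282 against Top3β (siTop3β) or UAS-mCherry-RNAi (siControl), which targets a fluorescent protein with no gene in the fly genome, both inserted at attP2. Top3β is a topoisomerase that acts on DNA and RNA. Each group had 2 libraries, each from the heads of a pool of flies. The tagged nuclei were captured with an antibody against GFP, a procedure called nuclei immunoenrichment, so the values are nuclear RNA although the labels read retina and total RNA. The question for these genes was which of them differed between siTop3β and siControl photoreceptors. Nothing in the labels ties the libraries to a batch or a day, and nothing says that same-numbered libraries belong together, so p-values measure the spread between these libraries only.

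The deposited values were raw counts, with totals from 3239201 to 4267208 per library, and 3 counts correspond to 0.697 to 0.871 CPM, the normalised read count used here, which sets every library to a common size. siTop3β replicate 1 had the lowest total, yet 12922 genes had a count in it, more than the 10104 to 10537 of the other libraries. The targeted transcript was not lower in the libraries labelled siTop3β. Top3β had 70 and 57 counts in siControl and 57 and 71 in siTop3β, a log2 fold change of 0.13 with a 95% interval from -0.39 to 0.64 (edgeR, adjusted p = 0.957). Every direction given here is therefore between libraries as labelled, and the counts do not show the knockdown. ninaE had 51109 to 78380 counts per library. None of the 17 photoreceptor markers was lower and 1, Hdc, was higher, and the summed level of the 17 was 86124 and 88996 CPM in siControl and 77734 and 86928 in siTop3β. The glial list summed to 56.4 and 60.1 CPM in siControl and to 72.0 and 47.3 in siTop3β, the list for other neurons to 174 and 164 against 174 and 133, and the list for cone and pigment cells to 47.6 and 51.2 against 41.2 and 33.4. Muscle markers summed to 38.5 and 107 CPM against 80.7 and 101, and hemocyte and fat body markers to 39.7 and 47.5 against 63.0 and 38.2. No defining marker was at 0 in all 4 libraries, and the part of other cell types in the results was not tested. In bulk RNA, fewer cells of a type and less RNA per cell cannot be told apart.

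Most guidance genes were measurable in the captured nuclei, and their levels covered a wide range. Per kilobase of annotated exon, a scale that allows levels of different genes to be compared, the mean siControl level was 90.6 CPM per kb for the protein kinase Pak. It was 77.3 for trio, a guanine nucleotide exchange factor, 62.7 for the receptor tyrosine kinase Eph, 56.4 for the adaptor dock and 46.9 for PlexA, the receptor of the class 1 semaphorins. The ranges of the 2 siControl libraries did not overlap between neighbours in this series from Pak to PlexA. Ephrin at 31.0 and Sema1b at 30.7 CPM per kb were not separated by their spread. The same was true of Sema1a at 27.7 and Abl at 26.2, and of Abl, Mical at 25.1 and Trim9 at 23.9. At the low end were otk, at 0.333 CPM per kb, and NetA, at 0.259. Because it is not stated whether intronic reads were counted, the levels per kb hold only as far as the reads came from exons. Pak and trio together held 27.4% of all counts on the 35 genes.

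**Figure D1:**
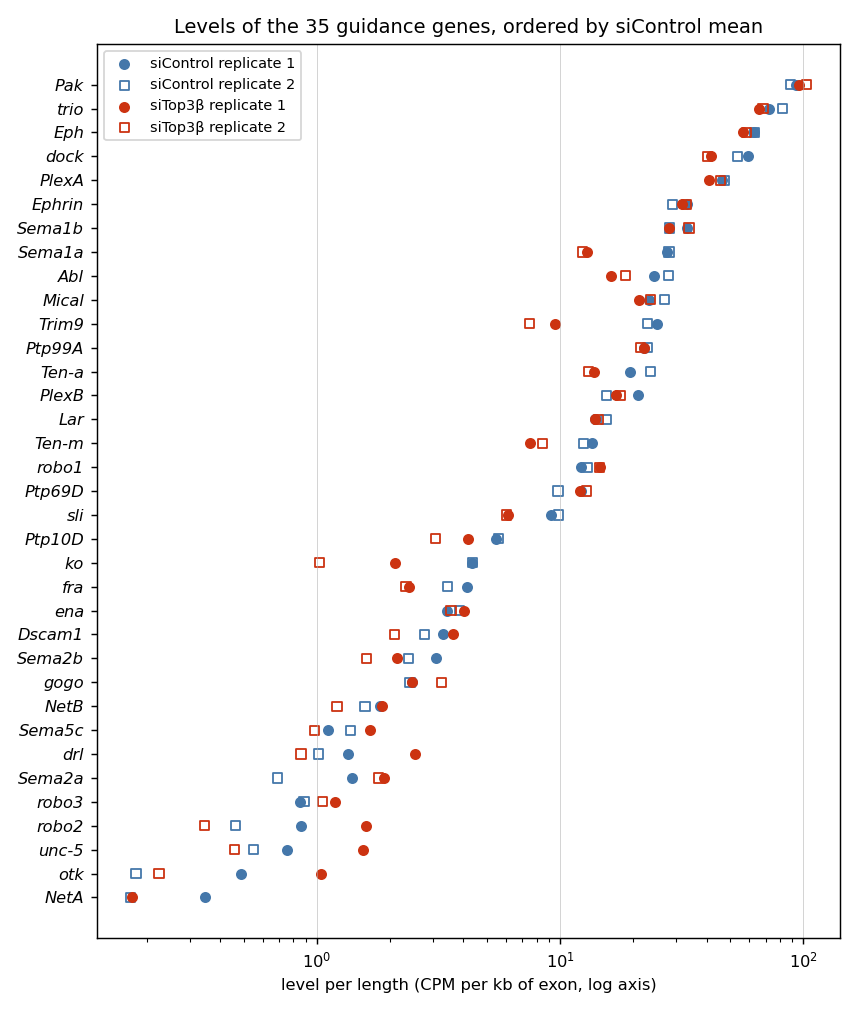
Level of each guidance gene per kilobase of annotated exon, on a log axis in CPM per kb, with 1 point for each of the 4 libraries and the genes in order of their siControl mean. The order runs from Pak at 90.6 to NetA at 0.259 CPM per kb in siControl, and siTop3β replicate 2, which had no NetA count, has no point for that gene.

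Of the 35 genes, 33 passed the expression filter of edgeR and were compared. The other pair was otk, a plexin co-receptor, with 10 and 3 counts in siControl and 17 and 4 in siTop3β, and NetA, a netrin, with 5 and 2 counts in siControl and 2 and 0 in siTop3β. Among the 33, 7 were lower in siTop3β at an adjusted p under 0.05, where 0.825% of the 7029 tested genes were lower. They were the semaphorin Sema1a, the teneurins Ten-a and Ten-m, the ligand sli and the intracellular effectors Trim9, ko and Abl. None was higher, where 0.384% of all tested genes were, also at an unadjusted p under 0.05, where 3.66% were, and also by DESeq2. At that unadjusted limit 10 members were lower, against 5.43% of all tested genes. In 15 of the 33 both siTop3β libraries were below both siControl libraries, a pattern seen in 19.0% of all tested genes, and in 4 (Pak, robo1, robo3 and Sema2a) both were above, as in 19.6% of all tested genes. The median log2 fold change was -0.09, beside 0.02 over all tested genes, and 20 of the 33 were negative, where 46.5% of all tested genes were. Summed over the 35 genes, the level was 5354 and 5499 CPM in siControl and 4535 and 4674 in siTop3β.

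Of the 7, the study names Ten-a, Ten-m, Trim9, ko and Abl in its text or supplement from these same libraries and draws Sema1a in a figure, so their calls are not independent evidence of a direction. Among the 29 members other than these 6, of which 27 were tested, 1 was lower, where 0.825% of all tested genes were. None was higher, where 0.384% were, and the median log2 fold change was -0.05. At an unadjusted p under 0.05 (edgeR), 4 of the 27 were lower and 0 higher. Of all tested genes 5.43% were lower and 3.66% higher at that limit. Both siTop3β libraries were below both siControl libraries in 9, against 19.0%, and above in 4, against 19.6%. The log2 fold change was negative in 14, against 46.5%. Part of the count also changed when 1 library was left out. The calls of sli, Abl, Ten-a and Ten-m were lost without a siControl library, as given below. Such a fit has a single library in 1 group, so a lost call does not show that the library left out carried the decrease. With 1 library left out, the log2 fold change ranged from -0.73 to -0.62 for sli and from -0.74 to -0.49 for Abl. It ranged from -0.83 to -0.55 for Ten-a and from -0.84 to -0.62 for Ten-m. Sema1a, Trim9 and ko stayed below 0.05 whichever library was left out. DESeq2, fitted to all 4 libraries, called 5 members lower, where 1.97% of its tested genes were lower.

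**Figure D2:**
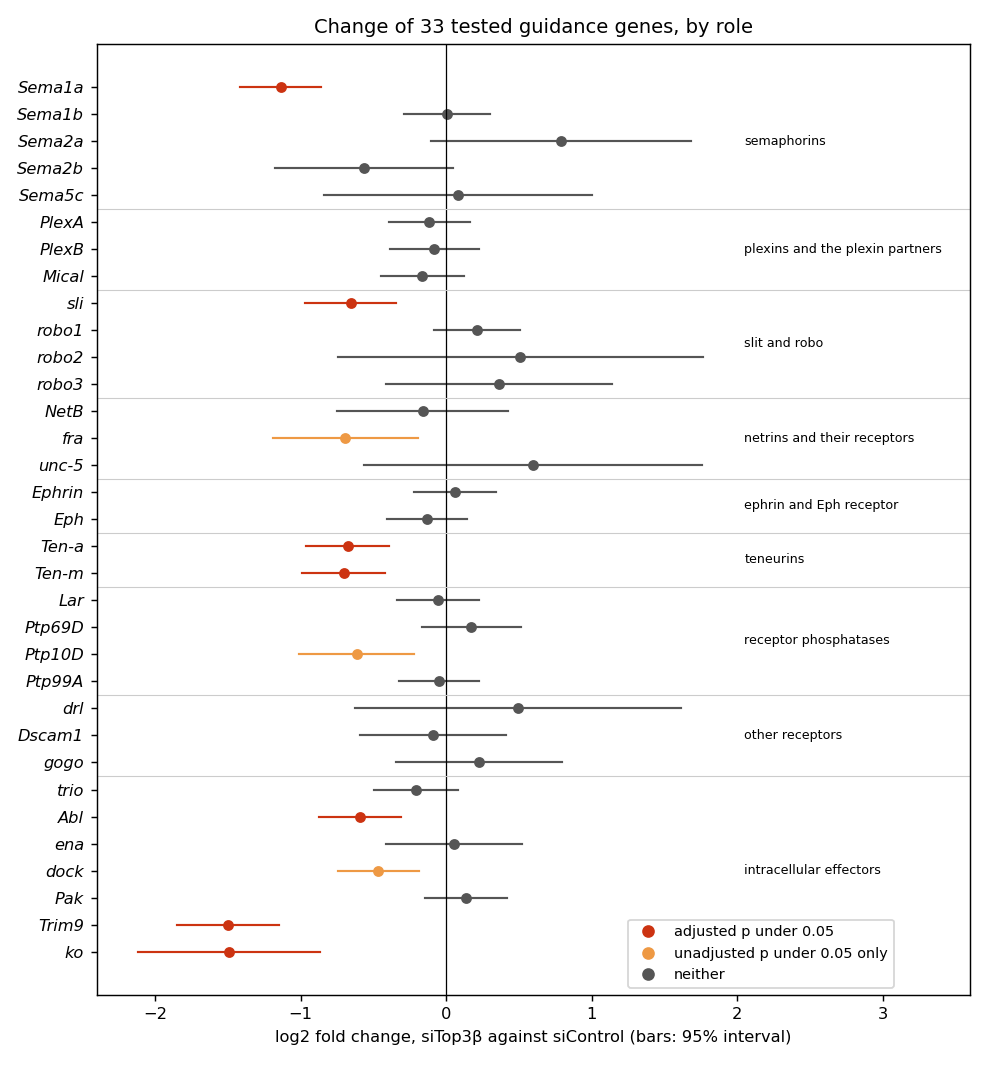
Log2 fold change of siTop3β against siControl for the 33 tested guidance genes, grouped by role, with bars for the 95% interval from edgeR. The 7 genes with an adjusted p under 0.05 all lie below 0, from -0.59 for Abl to -1.50 for Trim9, and no gene above 0 passed.

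Sema1a was the only one of the 5 semaphorins called. It is a transmembrane protein that serves both as a ligand of PlexA and as a receptor, and it lies on chromosome 2L from 8542147 to 8672041 (FBgn0011259, plus strand). Its counts were 1204 and 999 in siControl and 452 and 472 in siTop3β. Every siTop3β value lay far below every siControl value, and the replicates of each group were close to each other. It averaged 283 ± 4.45 CPM across the siControl pair and 129 ± 3.64 CPM across the siTop3β pair (SD, n = 2 each). This was a log2 fold change of -1.14 (SE 0.14, edgeR, adjusted p = 2.06e-06), so that 45.5% of the siControl level was measured, with a 95% interval from 37.5% to 55.1%.

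Its close relative Sema1b, also a transmembrane semaphorin, had 656 and 448 counts in siControl and 439 and 579 in siTop3β. The groups overlapped, with the highest level in a siTop3β library. The log2 fold change was 0.01, with an interval from -0.29 to 0.30, which does not reach the value of Sema1a, and its sign turned under other scalings. Sema2b, a secreted semaphorin bound by PlexB, had 69 and 43 counts in siControl and 38 and 31 in siTop3β, a log2 fold change of -0.56 (interval -1.17 to 0.04). The other secreted member, Sema2a, had 25 and 10 counts against 27 and 28, a log2 fold change of 0.79 (interval -0.11 to 1.69). Neither passed, although the siTop3β libraries were both lower for Sema2b and both higher for Sema2a. Sema5c, a transmembrane semaphorin with thrombospondin repeats, had 16 to 25 counts in every library.

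The semaphorin receptors did not pass the threshold. PlexA had 2112 and 1763 counts in siControl and 1498 and 1812 in siTop3β, a log2 fold change of -0.11 with an interval from -0.40 to 0.17 (edgeR, adjusted p = 0.894). The siTop3β levels, 435 and 484 CPM, were both below the siControl levels of 490 and 505 CPM, by less than the test resolves. PlexB, the receptor of the class 2 semaphorins, had 382 to 637 counts and a log2 fold change of -0.08 (interval -0.39 to 0.22). Mical, an enzyme that oxidizes actin downstream of PlexA, had 1190 to 1637 counts and a log2 fold change of -0.16 (interval -0.45 to 0.12). The receptor side of the pathway was thus measured with narrow intervals, none of which reached the value of Sema1a.

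sli encodes the secreted repellent Slit, which the Robo receptors bind. It lies on chromosome 2R from 15869495 to 15922118 on the minus strand (FBgn0264089). It had 381 and 331 counts in siControl and 202 and 216 in siTop3β. The groups did not overlap, and sli averaged 91.6 ± 4.42 CPM across the siControl pair and 58.1 ± 0.672 CPM across the siTop3β pair (SD, n = 2 each). Its log2 fold change of -0.65 (SE 0.15, edgeR, adjusted p = 0.0232) corresponds to 63.5% of siControl (interval 51.1% to 79.0%). This call held in 4 of 9 alternative fits to all libraries, the fewest of the 7. The 9 include a fit with a crossed pairing of the libraries, which was added after seeing the data. The call was also lost in edgeR without siControl replicate 1 and without siControl replicate 2.

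Among the receptors of Slit, robo1, which mediates repulsion from the midline, had 356 and 307 counts in siControl and 342 and 369 in siTop3β. Both siTop3β levels, 99.3 and 98.5 CPM, were above both siControl levels, 82.7 and 87.9 CPM, but the log2 fold change of 0.21 (interval -0.08 to 0.51) did not pass. robo2 and robo3, which set the lateral position of axons in the embryo, had 8 to 34 and 22 to 29 counts per library. Their log2 fold changes were 0.51 and 0.36, with intervals that included 0.

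Of the netrin genes only fra reached an unadjusted p under 0.05. It encodes Frazzled, the attractive netrin receptor related to vertebrate DCC. It had 113 and 76 counts in siControl and 52 and 55 in siTop3β, or 26.2 and 21.7 CPM against 15.1 and 14.7 CPM. The siTop3β levels were both lower, and the siControl levels were the more spread. For fra the log2 fold change was -0.69 (SE 0.24, edgeR, unadjusted p = 0.00817, adjusted p = 0.237), which does not pass over all tested genes. The ligand NetB had 64 and 45 counts in siControl and 52 and 37 in siTop3β, a log2 fold change of -0.16 (interval -0.75 to 0.43), and its groups overlapped. unc-5, the repulsive netrin receptor, had 9 to 28 counts and a log2 fold change of 0.60 (interval -0.56 to 1.76).

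Ephrin and its receptor Eph, a membrane-bound pair, were well covered and did not pass. Eph had 1548 and 1265 counts in siControl and 1117 and 1257 in siTop3β, a log2 fold change of -0.13 (interval -0.40 to 0.15). Ephrin had 536 to 760 counts and a log2 fold change of 0.06 (interval -0.22 to 0.34). Eph, Ephrin, PlexA and PlexB all lie on the small chromosome 4, and their intervals exclude a change of the size measured for Sema1a.

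Both teneurins were lower. Teneurins are large transmembrane proteins that match synaptic partners in the fly olfactory system and at neuromuscular junctions. Ten-a, on chromosome X from 12043698 to 12335214 (FBgn0267001, plus strand), had 1428 and 1400 counts in siControl and 812 and 833 in siTop3β. Ten-m, on chromosome 3L from 22293044 to 22407863 (FBgn0004449, minus strand), had 760 and 573 counts in siControl and 338 and 415 in siTop3β. For both genes the siTop3β libraries lay below the siControl libraries. Ten-a averaged 366 ± 48.8 CPM in siControl against 229 ± 9.36 CPM in siTop3β (SD, n = 2 each), at a log2 fold change of -0.68 (SE 0.14, edgeR, adjusted p = 0.00633). Ten-m averaged 170.2 ± 8.84 CPM against 104 ± 8.99 CPM (SD, n = 2 each), at a log2 fold change of -0.70 (SE 0.14, edgeR, adjusted p = 0.00408). The percentages of the siControl level were 62.6% (interval 51.4% to 76.3%) for Ten-a and 61.4% (interval 50.4% to 74.8%) for Ten-m, so the pair could not be separated by size. Both calls held in all 9 alternative fits to the full set of libraries. In edgeR the adjusted p of Ten-a was 0.098 without siControl replicate 1 and 0.480 without siControl replicate 2, and that of Ten-m was 0.265 without siControl replicate 1.

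**Figure D3:**
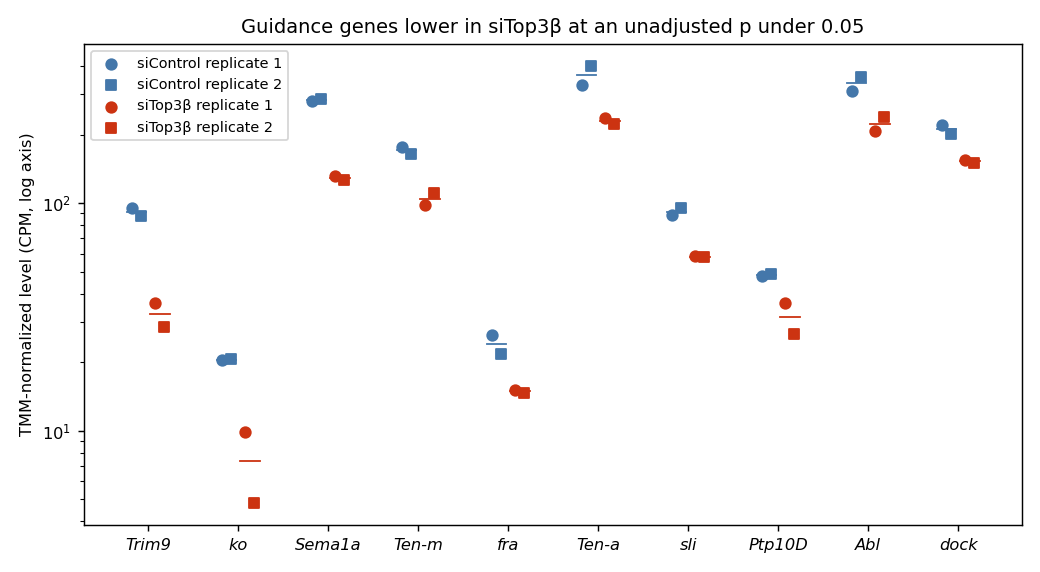
Level in CPM, on a log axis, in each of the 4 libraries for the 10 guidance genes with an unadjusted p under 0.05, with short lines for the group means. For each gene both siTop3β points lie below both siControl points, for example at 131 and 126 CPM against 279.6 and 286 CPM for Sema1a.

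None of the 4 receptor tyrosine phosphatases passed. Lar, known in the fly for targeting of photoreceptor axons, had 621 and 558 counts in siControl and 496 and 555 in siTop3β. Its levels were 144 and 159.7 CPM against 144 and 148 CPM, which is close to equal. The log2 fold change was -0.06, with an interval from -0.34 to 0.22. Ptp99A, a phosphatase of motor axons, had 869 and 732 counts in siControl and 695 and 733 in siTop3β and a log2 fold change of -0.05 (interval -0.32 to 0.22), whose sign turned under upper quartile scaling. Ptp69D, which acts in photoreceptor axon targeting, had 177 to 271 counts and a log2 fold change of 0.17 (interval -0.17 to 0.51).

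Only Ptp10D of this family reached an unadjusted p under 0.05. It acts with other phosphatases of the family in axon guidance at the midline. It had 205 and 170 counts in siControl and 125 and 100 in siTop3β, or 47.6 and 48.6 CPM against 36.3 and 26.7 CPM. The siTop3β levels were both below siControl and were apart from each other. Its log2 fold change was -0.61 (SE 0.19, edgeR, unadjusted p = 0.00362, adjusted p = 0.139).

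None of the other receptors passed. Dscam1, an immunoglobulin receptor with a very large number of splice forms that serves self-avoidance, had 376 and 256 counts in siControl and 332 and 207 in siTop3β. The lowest and the highest level both came from siTop3β libraries, and the log2 fold change was -0.09 (interval -0.59 to 0.41). gogo, which acts in R8 axon targeting, had 43 to 62 counts and a log2 fold change of 0.23 (interval -0.34 to 0.80). drl, a Ryk-family receptor of Wnt5, had 10 to 27 counts and a log2 fold change of 0.49 (interval -0.62 to 1.61).

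The intracellular effectors held the 2 steepest decreases. Trim9, a ubiquitin ligase that binds Frazzled, lies on chromosome 2L from 10544883 to 10628054 (FBgn0051721, plus strand). Its counts were 410 and 306 in siControl and 125 and 107 in siTop3β, with no overlap. It averaged 91.4 ± 5.40 CPM across the siControl pair and 32.4 ± 5.45 CPM across the siTop3β pair (SD, n = 2 each). This gave a log2 fold change of -1.50 (SE 0.17, edgeR, adjusted p = 1.07e-06), or 35.4% of siControl (interval 27.7% to 45.2%).

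ko (knockout), known for a part in motor axon targeting in the embryo, lies on chromosome 3L from 21075581 to 21131159 (FBgn0020294, minus strand). It had 88 and 72 counts in siControl and 34 and 18 in siTop3β. In CPM the siControl libraries were at 20.4 and 20.6 and the siTop3β libraries at 9.87 and 4.81, so the groups were apart and the siTop3β pair was spread. ko had a log2 fold change of -1.49 (SE 0.31, edgeR, adjusted p = 0.00633), or 35.6% of siControl with a wide interval from 23.0% to 55.0%. With scaling to total counts only, the adjusted p of ko was 0.105, and DESeq2 gave it none.

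Abl, a tyrosine kinase that acts below several guidance receptors, lies on chromosome 3L from 16615866 to 16647882 (FBgn0000017, minus strand). It had 1344 and 1253 counts in siControl and 712 and 891 in siTop3β. The groups did not overlap, at 335 ± 32.9 CPM against 222 ± 22.1 CPM (SD, n = 2 each). Abl had a log2 fold change of -0.59 (SE 0.14, edgeR, adjusted p = 0.0233), or 66.3% of siControl (interval 54.5% to 80.8%). In edgeR its adjusted p was 0.265 without siControl replicate 1 and 0.644 without siControl replicate 2. It was 0.0828 with no expression filter and 0.0615 without robust estimation. The actin regulator ena, a substrate of Abl, had 81 to 90 counts in every library and a log2 fold change of 0.05 (interval -0.41 to 0.52), whose sign turned in DESeq2.

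dock, the Nck-family adaptor that links receptors to Pak, was the next gene by p. It had 953 and 700 counts in siControl and 535 and 563 in siTop3β, or 221 and 200.3 CPM against 155 and 150.3 CPM. The groups were apart, but the log2 fold change of -0.47 (SE 0.13, edgeR, unadjusted p = 0.00183, adjusted p = 0.0982) did not pass. It passed where at least 10 counts were required in every library (adjusted p = 0.0442) and without siTop3β replicate 2 (adjusted p = 0.043). Its partner Pak had 2392 and 1842 counts in siControl and 1969 and 2309 in siTop3β. Both siTop3β levels of Pak, 571 and 617 CPM, were above the siControl levels of 555 and 527 CPM, at a log2 fold change of 0.13 (interval -0.15 to 0.42). trio had 2549 to 3515 counts and a log2 fold change of -0.21 (interval -0.50 to 0.08), with both siTop3β levels below both siControl levels. So the 2 members with the highest level per kb lay on opposite sides of 0, and neither passed.

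The guidance genes are long, and the lower ones were mostly the longest. The median span from the first to the last annotated base was 35.1 kb over the 35 genes, against 3.54 kb over all tested genes. Of the 11 members over 50 kb, 6 were lower, where 6.29% of the 286 tested genes of such a span were lower, these members included. All of these 6 but sli are genes the study names or draws from these same libraries. From those libraries the study also reports that its lower genes were long, so this share is not independent of that report. All 11 had a negative log2 fold change, Ptp99A turning to 0.0016 under upper quartile scaling, with a median of -0.65, beside -0.18 for all tested genes over 50 kb. In 8 of the 11 both siTop3β libraries were below both siControl libraries, as in 43.0% of the tested genes over 50 kb. Of the 22 tested members up to 50 kb, 1 (Abl, with a span of 32.0 kb) was lower, where 0.597% of all tested genes up to 50 kb were, and their median was 0.06, beside 0.03.

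Length did not separate the members completely. The 5 long genes that did not pass were Lar at 145 kb, Ptp99A at 109 kb, Dscam1 at 64.0 kb, NetB at 63.3 kb and Ptp10D at 55.3 kb. Lar is longer than Sema1a at 130 kb, and its interval, down to -0.34, does not reach the -0.86 that bounds Sema1a. sli at 52.6 kb lies just above the 50 kb line and NetA at 49.9 kb just below it. Across the 33 tested members the log2 fold change had a Pearson r of -0.45 with log2 span and a Spearman rho of -0.52. With the longest intron these were -0.46 and -0.52, with exonic length -0.19 and -0.36, and with mean CPM -0.31 and -0.40. Over all tested genes r with span was -0.12 and rho -0.13. These are descriptions across genes of the same 4 libraries, which are not independent replicates. The 33 include the genes that the study names or draws from these libraries, mostly long ones. The r and rho over the members are therefore not independent of its report on length, and they were not computed without those genes. Span and level were unrelated among the members, with r = 0.0041.

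**Figure D4:**
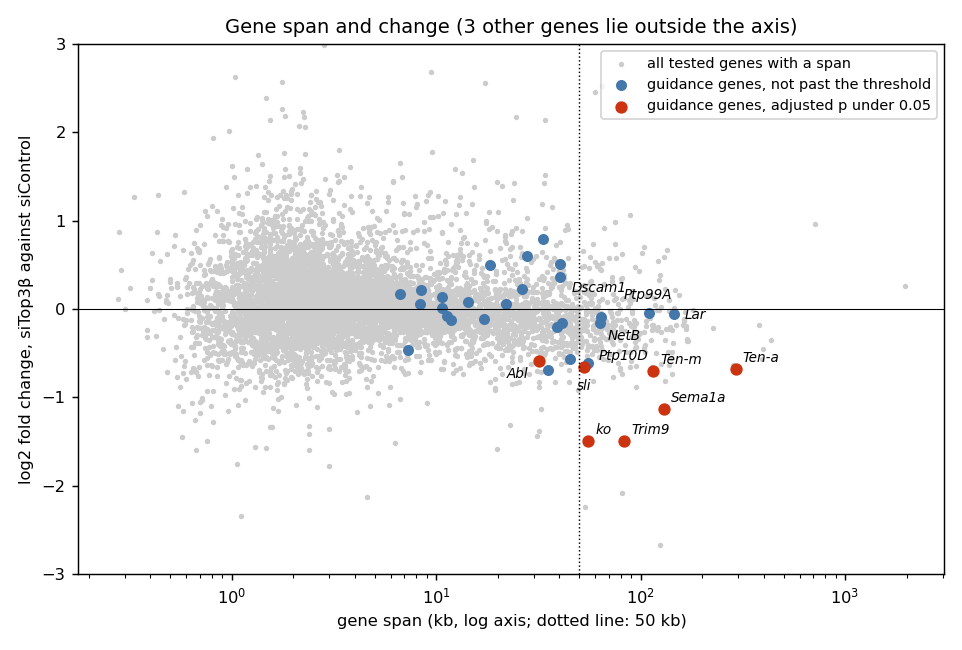
Log2 fold change of siTop3β against siControl against gene span in kb on a log axis, for all tested genes (grey), guidance genes that did not pass (blue) and guidance genes with an adjusted p under 0.05 (red). Of the 11 guidance genes right of the 50 kb line 6 are red and all lie below 0, with Lar and Ptp99A close to it, and 3 other genes fall outside the axis.

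The low members were mostly highest in 1 library. Of the 8 with a mean siControl level under 10 CPM (Sema2a, Sema5c, otk, robo2, robo3, NetA, unc-5 and drl), 7 had their highest level in siTop3β replicate 1, as did 70.5% of the 9090 genes of such a level with a count. That library also had the most genes with a count. Without it, robo2 went from 0.51 to -0.95 on the log2 scale, unc-5 from 0.60 to -0.51, drl from 0.49 to -0.46 and Sema5c from 0.08 to -0.34. None of these values passed the test with or without it, so no direction can be given for them. Without it the median over the members was -0.34. The median over all tested genes was not computed in that fit, so this value cannot be read as particular to the members.

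Other genes lie inside several members. The same-strand genes named in this paragraph share no exonic base with their member in the annotation. A read of the same strand from an intron of the member could still have been assigned to either. In the annotation 32 genes overlap 14 members, and 15 of them had counts above 1% of those of the member they overlap. Within Trim9 and on its strand, CG34160 had 54 and 44 counts in siControl and 15 and 18 in siTop3β, 13.8% of the counts of Trim9. It lay in the same direction as its host, at a log2 fold change of -1.45 (edgeR, adjusted p = 0.0315). CG6138, also inside Trim9 on the same strand, had 30 and 17 counts against 7 and 8 and did not pass (adjusted p = 0.294, edgeR). Inside ko, CG33285 had 5 and 7 counts in siControl and 0 and 0 in siTop3β, while CG33284 and CG43938 on the other strand had at most 3 in any library. The genes w-cup in Trim9, CG33463 in sli, CG30056 and CG33752 in fra, and hog and CG43088 in NetB had at most 9 counts in a library.

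Among the members not called, CG17122 inside gogo held 25.7% as many counts as gogo, CG2321 on the other strand of Ptp99A 13.7%, and CG9205 on the other strand of trio 5.15%. Pms2 on the other strand of unc-5 held 284% of the counts of unc-5, so the low values of unc-5 are uncertain. Every exonic base of CG46244 is shared with Lar, and it is listed at 0 in all libraries. The counting tool and its use of strand are not given in the sources used here, so the share of such reads in the members' values was not tested.

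A wider list of 68 guidance genes that are not members, of which 67 matched and 60 were tested, was compared in the same fit. Only kuz was lower, where 0.825% of all tested genes were, and none was higher, where 0.384% were, so the calls were near the shares over all genes. kuz, a metalloprotease that cleaves Robo in the fly, averaged 135 ± 3.00 CPM in siControl against 89.9 ± 1.19 CPM in siTop3β (SD, n = 2 each), with a log2 fold change of -0.58 (SE 0.14, edgeR, adjusted p = 0.026). Its span of 89.3 kb puts it among the long genes, and the call was lost in 5 of 9 alternative fits, DESeq2 among them, and without either siControl library. The next genes by p did not pass in edgeR: Sdc, a heparan sulfate proteoglycan that assists Slit signalling, at -0.48 (adjusted p = 0.0849), the Ryk-family gene dnt at 0.92 (adjusted p = 0.140) and the cofilin gene tsr at -0.73 (adjusted p = 0.259). At an unadjusted p under 0.05, 11 of the 60 were lower, where 5.43% of all tested genes were, and 1 was higher, where 3.66% were. The median log2 fold change was -0.10, beside 0.02 over all tested genes. Of the 12 genes of the wider list over 50 kb, 1 was lower, where 6.29% of all tested genes of such a span were, and their median was -0.06, beside -0.18 over those genes. By family, the calls were 0 of 10 adhesion and recognition receptors, 1 of 5 regulators of Slit and Robo, 0 of 6 Wnt and Ryk genes and 0 of 22 cytoskeletal and signalling effectors.

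Some calls changed with the settings of the fit. The fits counted here include the crossed pairing, which was added after seeing the data. Over 9 other fits to all 4 libraries, Sema1a, Trim9, Ten-m and Ten-a passed in all 9, ko in 7 of the 8 that gave it a p, Abl in 7 of 9 and sli in 4 of 9. The largest adjusted p was 0.000391 for Sema1a and 0.00166 for Trim9, against 0.0276 for Ten-m and 0.0274 for Ten-a. None of the 33 tested members was higher in any of these fits.

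**Figure D5:**
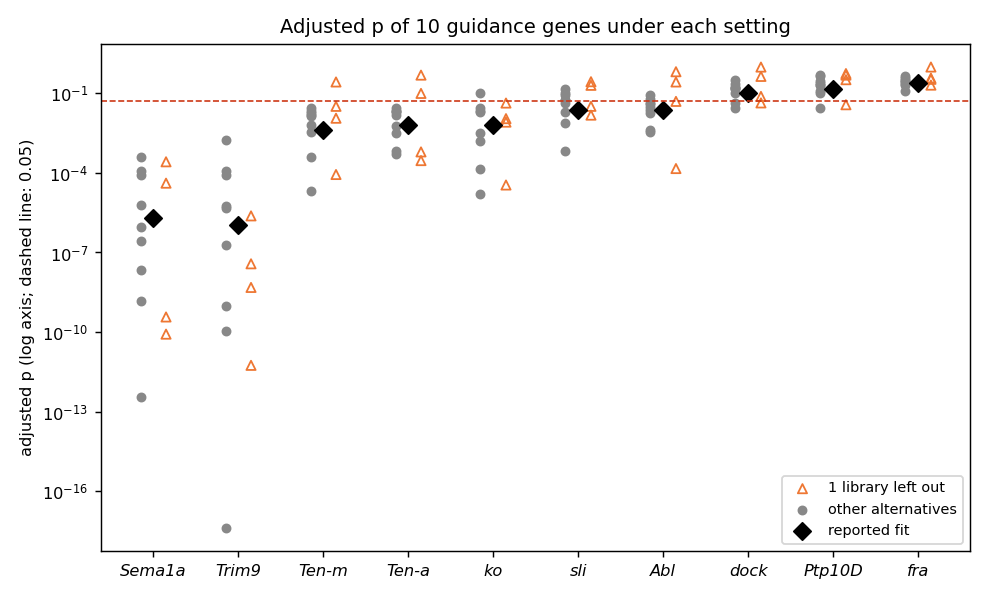
Adjusted p on a log axis for the 7 guidance genes called lower and for dock, Ptp10D and fra, under the reported fit, the alternative fits and each library left out, with a line at 0.05. Sema1a and Trim9 stay below the line under every setting, while Ten-m, Ten-a, ko, sli and Abl have points on both sides of it. The genes dock and Ptp10D, above it in the reported fit, fall below it under a few settings.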

How the data were processed

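Nuclear RNA-seq of male Drosophila heads was compared between 2 siControl and 2 siTop3β libraries, grouped by the labels. Per the labels and the methods, the authors used Trimmomatic for trimming, STAR for alignment to dm6 and SAMtools, and deposited raw counts per gene. The authors compared groups with DESeq2. How reads were assigned to genes is not given in the sources used here.

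Counts were fitted with edgeR 4.0.16 in R 4.3.3 (TMM scaling, filterByExpr, robust quasi-likelihood, two-sided), with Benjamini-Hochberg adjustment over the 7029 genes that passed and a threshold of 0.05. Standard errors and 95% intervals came from the test statistic. CPM used TMM-scaled library sizes. Floors of 3 counts cover counting error only. Replicates differed beyond sampling noise (chi-square per degree of freedom 4.48 and 5.28). The code was tested on simulated data. DESeq2 1.42.0 gave an alternative fit, and scaling, filters, a replicate block, thresholds and single libraries were varied. Spans, exons, strands and symbols came from Ensembl release 115, in dm6 coordinates, which covered 13866 of 13929 genes.

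The members and lists were chosen with earlier results of these data known. All members are named. Full values are given for members past the threshold or with an unadjusted p under 0.05, the wider list by its call and the next genes by p, and overlapping genes where they held over 1% of the member's counts. CG46244 was named after its values were seen. Some results of the wider list are not reported here. No sequences were used here.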

Additional observations from a re-analysis of the deposited data

How the results depend on the processing

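The 7 lower members became 5 with total counts only, with no filter, without robust estimation and in DESeq2, 6 with the replicate block, 8 where at least 10 counts were required and at an adjusted p under 0.1, and 9 with the crossed pairing. With upper quartile scaling, members with both siTop3β libraries above siControl went from 4 to 7, and those with both below from 15 to 13. The share of all tested genes was not counted under this scaling, so this shift cannot be read as particular to the members. Same-numbered libraries share only a number, with a correlation of -0.13 between their deviations, and the crossed pairing was added after seeing the data. The replicate block took sli out of the calls (adjusted p = 0.101, edgeR) and moved no other member across the threshold.

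Genes called higher, 27 of all tested, were 17 with total counts only and with the replicate block, 42 with no filter, 44 with at least 10 counts, 80 with the crossed pairing, 4 in DESeq2 and 44 at an adjusted p under 0.1. Genes called lower, 58 of all tested, were 94 with at least 10 counts, 131 with the crossed pairing and 90 at an adjusted p under 0.1. The 1 lower gene of the wider list became 0 with total counts only, no filter, no robust estimation, the replicate block and DESeq2, and 2 with at least 10 counts, the crossed pairing and an adjusted p under 0.1, and 1 was higher with the crossed pairing.

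With 1 library left out, the lone library was assumed to vary like the other group. The ranges were then 3 to 8 members lower, 18 to 21 members below and 5 to 10 above without overlap, a median from -0.34 to -0.0997, 40 to 171 genes lower, 11 to 253 higher, and 0 to 3 lower and 0 to 1 higher in the wider list. Neither the share of all tested genes without overlap nor their median log2 fold change was computed in these fits. The range of the member median can therefore not be read as particular to the members. A lone library is separated from the other group more easily than a pair. The counts of members without overlap can therefore not be set beside the shares for all 4 libraries, or read as particular to the members. The log2 fold change of Top3β ranged from -0.017 to 0.22.

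Signs turned only for members near 0 or with few counts. Ptp99A was 0.0016 with upper quartile scaling, Sema1b -0.000298 with RLE scaling, -0.029 with no filter and -0.045 in DESeq2, and ena -0.0073 in DESeq2. With 1 library left out, the log2 ranges were -0.34 to 0.38 for Sema5c, -0.30 to 0.13 for PlexB, -0.54 to 0.22 for Dscam1, -0.057 to 0.12 for ena, -0.18 to 0.14 for Sema1b, -0.053 to 0.14 for Ephrin, -0.15 to 0.00042 for Lar, -0.95 to 1.19 for robo2, -0.51 to 1.19 for unc-5, -0.46 to 1.04 for drl, -0.49 to 0.076 for NetB and -0.034 to 0.41 for gogo. The cause of these shifts was not tested. With 2 libraries a group, changes of the size measured for sli and Abl lie near what the test can call, and members under 10 CPM were not resolved at this depth.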
